A study of Mus musculus with 7 samples.

Results

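The Id genes were described in mouse embryonic stem cells that differentiated with retinoic acid for up to 6 days. They were found as the rows named Id1, Id2, Id3 or Id4 in the table of read values per RefSeq transcript. Of the 4 symbols, 3 were listed (Id1, Id2 and Id3, 1 transcript each), out of 12071 symbols in all, and all 3 lay above the expression filter used for the trend test. Id4 RNA was not analysed here. The genes were chosen by family name after their deposited levels over the 7 days had been seen, so levels and differences are a description, without a test. The cells were the line CCE, grown without feeder cells on gelatin. The day 0 library came from cells given DMSO, in a medium whose protocol includes leukemia inhibitory factor (LIF), a cytokine that keeps mouse stem cells undifferentiated. The libraries of days 1 to 6 came from cells without LIF in 5 µM retinoic acid, a vitamin A derivative that acts through nuclear receptors. Each day had 1 library of ribosomal-RNA-depleted total RNA, so there were 7 libraries and no replicate, and LIF removal, retinoic acid and days in culture cannot be told apart.

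Id proteins are helix-loop-helix proteins without a basic DNA-binding region. They pair with the E proteins, the common partners of basic helix-loop-helix (bHLH) factors, and the resulting dimers do not bind DNA, which holds back differentiation programs driven by bHLH factors. Bone morphogenetic proteins (BMPs) switch on Id genes through receptors that phosphorylate SMAD1, SMAD5 and SMAD9, and in mouse embryonic stem cells BMP and LIF together are known to support self-renewal in part through Id genes.

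All 3 genes are short. In the mm9 build, Id1 (NM_010495) lies on chromosome 2 from 152562009 to 152563146 on the plus strand with a transcript of 913 nt. Id2 (NM_010496) lies on chromosome 12 from 25778663 to 25780957 on the minus strand with 1275 nt, and Id3 (NM_008321) on chromosome 4 from 135699736 to 135701307 on the plus strand with 956 nt. No other transcript in the table overlapped them (0 in each case). The sequences upstream of Id2 and Id3, the genes with the most alike courses of the 3, are shown. The promoter entries used here held none for Id1, so its upstream sequence was not searched. They are the 250 bases before the RefSeq start in GRCm38.p6, at chr12:25096093-25096342 (minus strand) for Id2 and chr4:136143572-136143821 (plus strand) for Id3, written 5′ to 3′ along the gene. Capitals mark matches to GGCGCC, a GC-rich element bound by SMAD1 and SMAD5, and to CANNTG, the E-box that bHLH dimers bind.
Id2: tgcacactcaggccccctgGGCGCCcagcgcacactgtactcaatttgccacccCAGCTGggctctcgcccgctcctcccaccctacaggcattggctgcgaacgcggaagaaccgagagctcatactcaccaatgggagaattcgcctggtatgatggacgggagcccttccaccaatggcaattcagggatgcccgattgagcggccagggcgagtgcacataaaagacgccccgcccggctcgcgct
Id3: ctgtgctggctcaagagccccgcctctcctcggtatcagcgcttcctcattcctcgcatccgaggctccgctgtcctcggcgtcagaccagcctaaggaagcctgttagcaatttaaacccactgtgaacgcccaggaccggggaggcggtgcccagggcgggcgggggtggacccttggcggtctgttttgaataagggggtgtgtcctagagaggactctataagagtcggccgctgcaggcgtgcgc
Id2 held 1 GGCGCC, from 231 to 226 bases before the start, and 1 E-box, CAGCTG, from 196 to 191 bases before it, and the matches do not overlap. In Id3 neither was found (0 matches each). Bases farther upstream were not searched for any gene. The Id4 window, which RefSeq also gives, held 1 GGCGCC and 0 E-boxes. Over 32851 RefSeq windows of the same length, 9.59% held GGCGCC and 66.2% an E-box, counted on both strands. The other motifs searched had 0 matches in all 3 windows. They were GTCTAGAC (a palindromic SMAD element, in 0.167% of windows), TGACGTCA (the cyclic AMP response element, 1.55%), GCGTGGGCG (the EGR1 element, 0.536%) and AGGTCA (the core of retinoic acid and other nuclear receptor elements, 14.0%). A match is a run of letters and not a measured binding site.

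The libraries held 7194325 (day 6) to 17923852 (day 4) reads over the listed transcripts. Of 9 embryonic stem cell markers in the table, Pou5f1 (Oct4) stood at a log2 level of 14.40 on day 0 and Nanog at 11.46, and by day 5 all 9 were lower. The day 6 library stood apart: across 7242 genes, the longer the transcript the lower its day 6 value stood against day 5 (Spearman rho −0.78, a description, since genes are not independent replicates). For the earlier daily steps rho lay from −0.050 to 0.26. The median day 6 minus day 5 difference was 1.88 for 1125 genes under 1500 nt, the size class of the Id genes, and −2.40 for genes over 3000 nt. Trends were therefore fitted over days 0 to 5, and day 6 values are given apart. A straight line on day was called for 25.7% of genes as rising and 26.8% as falling (limma, adjusted p under 0.05), and over all 7 libraries for 1.6% and 3.78%. With 1 library a day these p-values measure scatter about the line, not spread between cultures. Of the called genes 48.9% rose, and 36.2% after each library was centred on its median. That centring lowers every day 5 minus day 0 difference by 0.29 on the log2 scale.

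Per transcript length, Id2 and Id3 stood above 44.6% and 46.7% of symbols on day 0 and above 92.4% and 97.9% on day 2, while Id1 started above 93.1%, dipped on day 1 and came back. Id3 stood 29.7-fold higher on day 5 than on day 0, Id2 7.14-fold and Id1 1.25-fold. For Id3 and Id2 most of the difference appeared in a single step, from day 1 to day 2. For Id1 that step followed the dip and was larger than its day 5 minus day 0 difference (log2 1.78 against 0.32). From day 2 to day 5 levels moved less, though Id3 went up by 0.54 from day 3 to day 5 (0.45 to 0.63).

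Id3, the member with the largest difference, had log2 levels of 7.11, 8.67, 11.72, 11.46, 11.67 and 12.00 on days 0 to 5 and of 14.32 on day 6. These levels rest on 72, 237, 1913, 1412, 2948, 3432 and 7447 reads. Days 0 and 1 were low and days 2 to 5 high, within 0.54 of each other. The day 1 minus day 0 difference was 1.56 (95% counting interval 1.17 to 1.96) and the day 2 minus day 1 difference 3.05 (2.85 to 3.25), an 8.26-fold step. On day 5 the level was 4.89 above day 0 (4.55 to 5.25), and 94.2% of that difference on the log2 scale was present by day 2, the first step included. Intervals are exact binomial ones for 2 libraries and cover counting error only.

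Id2 had log2 levels of 7.42, 8.26, 10.61, 10.18, 10.36 and 10.26 on days 0 to 5 and of 11.16 on day 6, from 89, 178, 885, 582, 1190, 1022 and 832 reads. Its course had the same shape as that of Id3 with a smaller rise. The day 1 minus day 0 difference was 0.84 (0.47 to 1.23), the day 2 minus day 1 difference 2.35 (2.11 to 2.59, 5.09-fold), and the day 5 minus day 0 difference 2.84 (2.52 to 3.17). Day 2 was the highest of days 0 to 5, and day 5 lay 0.35 below it (interval −0.48 to −0.22).

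Id1 had log2 levels of 10.44, 9.32, 11.10, 10.98, 10.85 and 10.77 on days 0 to 5 and of 12.84 on day 6, from 724, 371, 1245, 1011, 1672, 1457 and 2661 reads. Unlike the other two it was lower on day 1, 2.18-fold (log2 −1.12, interval −1.31 to −0.94). From day 1 to day 2 it went up 3.43-fold (1.78, 1.61 to 1.95), so that day 2 lay 0.66 above day 0 (0.52 to 0.79). After day 2 it drifted down, with daily differences of −0.12, −0.13 and −0.080 on days 3, 4 and 5, and day 5 lay 0.33 below day 2 (−0.44 to −0.22). The day 5 minus day 0 difference of Id1 was 0.32 (0.19 to 0.45), but only 0.039 after median-centring and 0.74 after a correction for transcript length, so its size depends on the scaling.

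**Figure D1:**
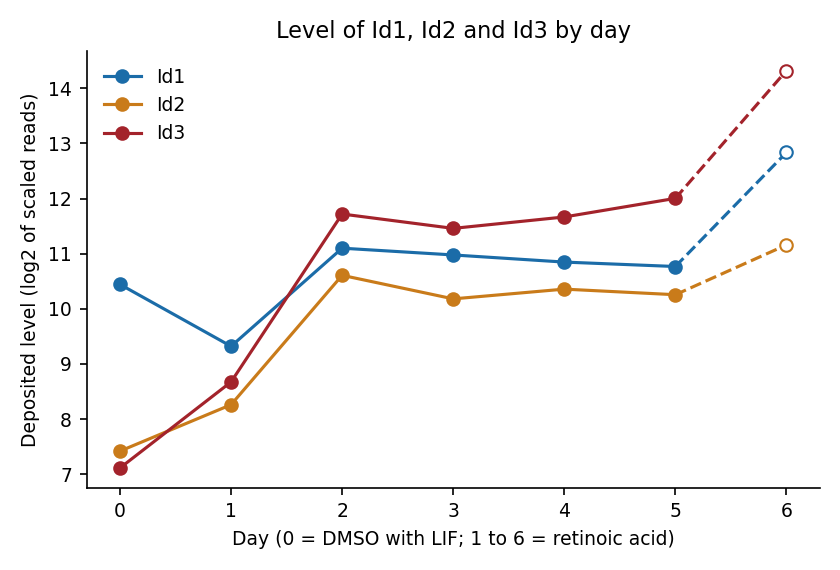
Level of Id1, Id2 and Id3 (deposited log2 of scaled reads, y axis) by day (x axis), 1 library per point, with day 6 as open symbols joined by dashed lines. Id2 and Id3 go from 7.42 and 7.11 on day 0 to 10.61 and 11.72 on day 2, while Id1 dips to 9.32 on day 1.

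The step to day 2 was large beside that of other genes. The differences of Id3, Id2 and Id1 exceeded those of 99.5%, 98.7% and 97.3% of the 7242 genes, whose median was −0.032. Of the 3 genes, 2 were at least 4-fold higher on day 2 than on day 1, as were 2.13% of genes kept. On the first day, by contrast, the 3 genes lay on both sides: Id3 and Id2 exceeded 97.7% and 91.9% of genes, and Id1 only 1.60%. From day 2 to day 5 they spanned 0.33 (Id1), 0.43 (Id2) and 0.54 (Id3), with a median span of 0.44 over all genes kept. Straight lines over days 0 to 5 had slopes of 0.95 ± 0.21 (SE) log2 units per day for Id3, 0.57 ± 0.17 for Id2 and 0.17 ± 0.12 for Id1, beside a median slope of −0.0012. A straight line describes these stepped courses poorly.

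**Figure D2:**
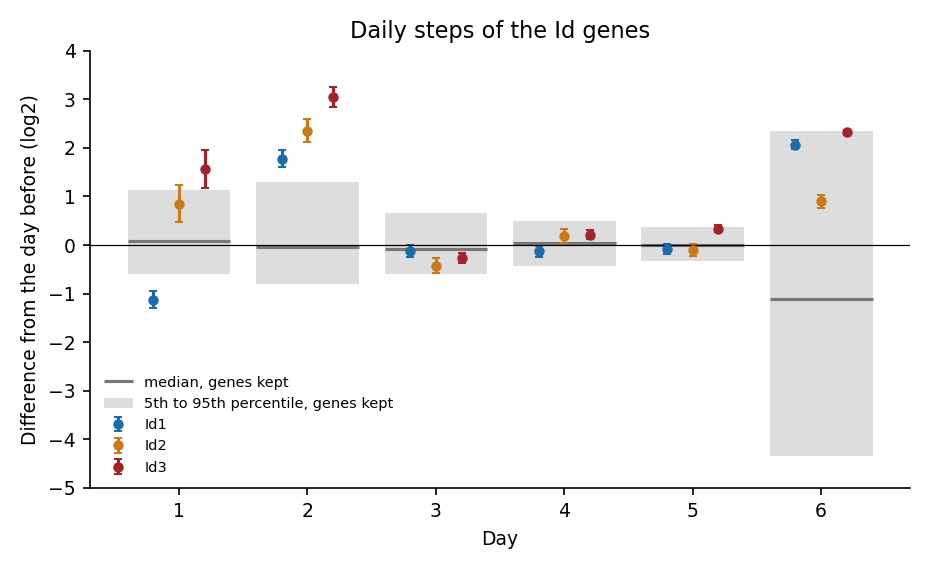
Difference from the day before (log2, y axis) for each day (x axis), as points with 95% counting intervals for Id1, Id2 and Id3. Grey bars span the 5th to 95th percentile of the 7242 genes kept and grey lines mark their median. On day 2 all 3 points lie above the bar, on day 1 Id1 lies below and Id3 above it, and from day 3 on all 3 lie within it.

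On day 6 the levels of all 3 genes were higher again, by 2.32 (Id3), 2.07 (Id1) and 0.90 (Id2) over day 5, where the median gene under 1500 nt differed by 1.88. Among such short genes these steps exceeded 70.3%, 59.7% and 17.2%. After the length correction the day 6 minus day 5 difference was 0.44 for Id3, 0.11 for Id1 and −0.39 for Id2, whose sign thus turned. The day 6 differences of the 3 genes thus lay among those of other short transcripts.

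**Figure D3:**
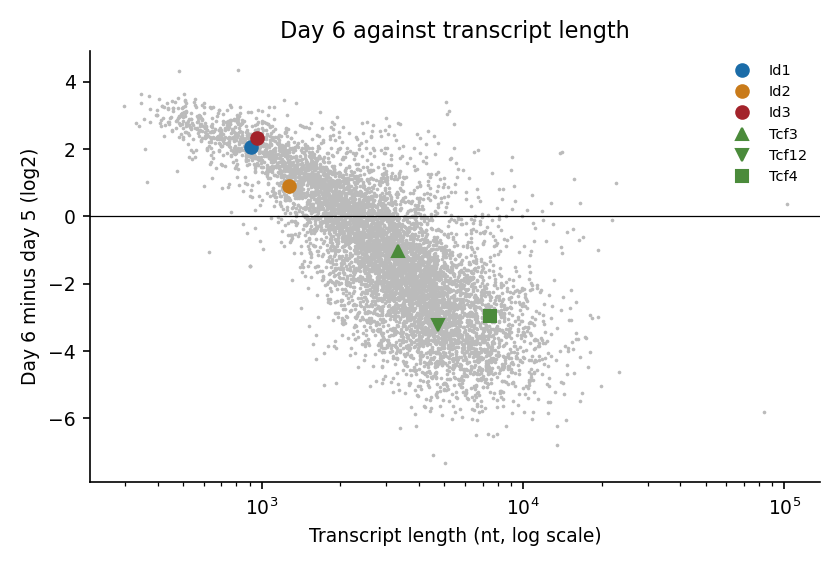
Day 6 minus day 5 difference (log2, y axis) against transcript length (nt, log scale, x axis) for the 7242 genes kept (grey), with the 3 Id genes as circles and the E protein genes Tcf3, Tcf12 and Tcf4 as green symbols. The Id genes sit among other short transcripts, at 2.32, 2.07 and 0.90, and the longer E protein transcripts below 0.

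The order of the Id genes turned over within 2 days. Per transcript length, Id1 was 10.5 times as abundant as Id3 on day 0 (interval 8.26 to 13.6), and Id3 and Id2 did not differ beyond counting error (ratio 1.08, 0.780 to 1.49). On day 1 Id1 was still first, at 1.64 times Id3 (1.39 to 1.94). From day 2 on Id3 was first in each library, at 1.47 times Id1 on day 2 (1.37 to 1.58) and 2.25 times on day 5 (2.12 to 2.39), with ratios of 1.33 and 1.68 between them. Id2 was last in those libraries. Of all reads of the 3 genes, Id1 held 81.8% on day 0 (79.1% to 84.3%, exact binomial), 47.2% a day later, 30.8% by day 2 and 24.6% by day 5 (23.6% to 25.8%). Id3 went from 8.14% (6.42% to 10.1%) to 58.1% (56.8% to 59.3%) over the same days. These shares are ratios within a library and do not depend on the library factors. Summed over the 3 genes, the level went from 1803 scaled reads per kb on day 0 to 1367, then to 7151 by day 2 and 7159 by day 5.

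BMP ligand genes were mostly higher at the Id step, while Bmp4 was lower. Of 19 listed, 10 were in the table, and 8 of them were higher on day 2 than on day 1, with a median difference of 0.98 against 0.012 over all symbols. Of the 10, only Bmp1 passed the filter, whereas all symbols include well expressed ones, so these medians are not like for like. Bmp1, which despite its name encodes a procollagen-cleaving protease, rose by 0.74 ± 0.12 per day (adjusted p = 0.00475), a call lost over 7 libraries (0.25, adjusted p = 0.549). Bmp4, the ligand best known for inducing Id genes in embryonic stem cells, had 839 reads and a level of 10.65 on day 0, levels of 7.55 and 6.82 on the next days, and stood at 8.33 on day 5, 5.01-fold below day 0 (log2 −2.33, interval −2.53 to −2.13). It was thus at its lowest on day 2, when the Id genes had stepped up. Gdf3, a stem cell ligand of the same superfamily, went from 1224 reads to 1 read on day 5, and Gdf11 from 11 to 298. Gdf6 counts were 1, 3 and 9 reads for days 0 to 2 and 120 for day 5. At day 5, 5 of the 10 ligand genes were at least 4-fold higher and 2 lower than on day 0, against 12.7% and 4.66% of all symbols. Those shares include well expressed symbols, whereas most of the 10 lay below the filter.

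Of 7 receptor and coreceptor genes kept (9 in the table), 5 rose and 0 fell over days 0 to 5, against 25.7% and 26.8% of all genes kept, with a median slope of 0.32. They included Bmpr1a, a type I receptor for BMP4 (0.25 ± 0.072, adjusted p = 0.0262, from 10.22 on day 0 to 11.64 on day 2 and 11.56 on day 5), and Bmpr2, the type II receptor (0.49 ± 0.086, adjusted p = 0.00539, from 7.90 to 10.17). Acvr2a, another type II receptor, had a slope of 0.40 (adjusted p = 0.0085), and Acvr1 and Neo1 were the remaining rising genes. Rgma, a BMP coreceptor, went from 22 to 698 reads in the first day, and its line was not called (0.48 ± 0.34, adjusted p = 0.264). Without day 0 it was called falling (−0.26, adjusted p = 0.0307). Over all 7 libraries 0 of the 7 were called, and the slopes of Bmpr1a, Bmpr2, Acvr2a and Neo1 turned negative. The call of Bmpr1a was also lost without day 0 (adjusted p = 0.176), day 1 (0.0633) or day 4 (0.0704), and that of Neo1 without day 0 (0.109) or day 4 (0.0542).

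Among the SMAD genes, Smad1 and the common partner Smad4 rose and Smad5 did not pass the test. Of 5 kept, 3 rose and 0 fell, against 25.7% and 26.8% of all genes kept. Smad1 had levels of 7.60, 8.76, 8.97, 9.14, 9.63 and 10.06 on days 0 to 5 (slope 0.43 ± 0.061, adjusted p = 0.0033). Its largest daily difference was that of day 1, and it lacked the large day 2 step of the Id genes. Smad4 had a slope of 0.16 ± 0.039 (adjusted p = 0.0158), and Smad3, of the TGF-beta branch, one of 0.65 (adjusted p = 0.00225). Smad5 had a slope of 0.070 ± 0.062 (adjusted p = 0.364). Smad9, the third BMP-branch transducer and itself a known BMP target, was below the filter, with 2, 6, 74, 87, 428 and 400 reads on days 0 to 5. Its day 2 minus day 1 difference was 3.66 (2.47 to 5.15). Over 7 libraries 0 of the 5 were called, and the slope of Smad4 was −0.13. Its call was also lost without day 0 (adjusted p = 0.102) or day 4 (0.057).

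Other genes known to respond to BMP and SMADs were split. Of 12 in the table, 9 were higher on day 2 than on day 1, with a median difference of 1.48 against 0.012 over all symbols. Of the 12, 4 were at least 4-fold higher at that step, against 3.45% of symbols: Atoh8, Msx2, Gata2 and Msx1. That share includes well expressed symbols, whereas only 7 of the 12 passed the filter, and Atoh8, Msx2 and Msx1 had few reads. Msx2, a homeobox gene, had 4, 16 and 136 reads in the first 3 libraries (last step 3.12, 2.37 to 3.97) and 166 by day 5. Atoh8, a bHLH gene, had 2, 1 and 25 reads in the first 3 libraries and 206 by day 5. Msx1, in contrast, peaked with 108 reads on day 2, between 27 and 11 reads the days before and after. Smad6, which encodes an inhibitory SMAD of the BMP branch, had levels of 6.30, 7.40, 9.11, 9.17, 9.52 and 9.85 on days 0 to 5, and its largest daily step was also that to day 2 (1.71, 1.38 to 2.05). Bambi, which encodes a decoy receptor, had levels of 7.40, 8.15, 9.62, 10.00, 10.21 and 10.67.

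In the trend test 2 of the 7 target genes kept rose and 2 fell, close to the 25.7% and 26.8% of all genes kept. They were Bambi (slope 0.65 ± 0.085, adjusted p = 0.00292) and Gata2 (0.99 ± 0.14, adjusted p = 0.00321). The 2 that fell were Cdh1 (E-cadherin, −0.57, adjusted p = 0.0025) and Klf10 (−0.36, adjusted p = 0.00232). Smad7, the inhibitory SMAD shared with TGF-beta signaling, had levels of 10.30, 9.45, 10.02, 9.78, 9.53 and 9.64, and its slope was not called (−0.094 ± 0.064, adjusted p = 0.249). Without day 1 Smad7 was called falling (−0.15, adjusted p = 0.0337). It dipped on day 1 as Id1 did, and its later levels lay below day 0. Over 7 libraries 0 of these 7 were called rising and 1, Klf10, falling.

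**Figure D4:**
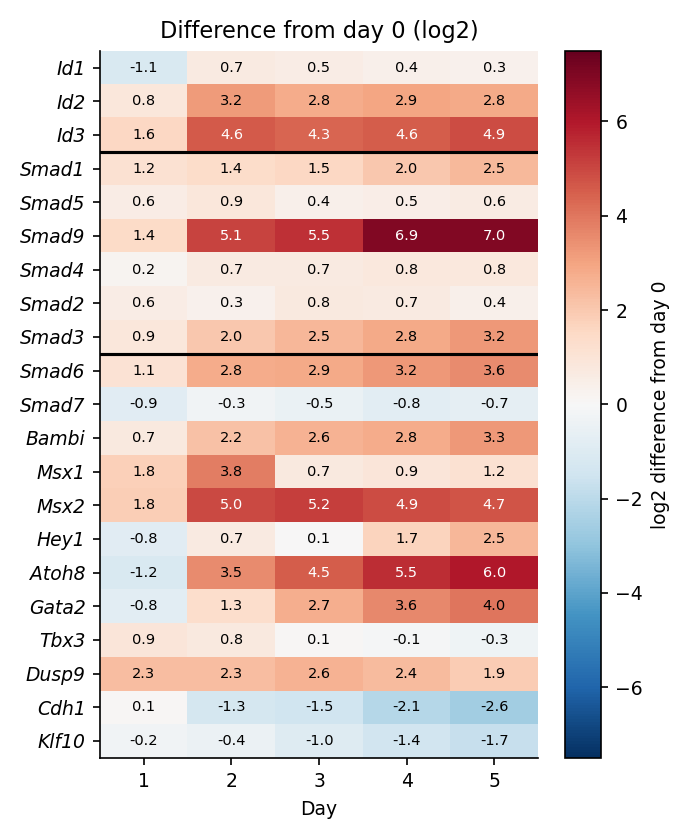
Difference from day 0 (log2, colour and printed value) on days 1 to 5 (columns) for the Id genes (top block), all 6 SMAD transducer genes (middle block) and all 12 listed BMP-SMAD target genes (bottom block), 1 library per cell. Smad9, Smad6, Bambi, Msx2 and Atoh8 share the rise by day 2 seen in Id2 and Id3, whereas Smad7, Cdh1, Klf10 and Tbx3 are below 0 on day 5.

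Of 10 kept intracellular inhibitor and feedback genes, 3 rose, near the 25.7% of all genes kept, and 0 fell: Bambi and the ubiquitin ligase genes Smurf1 (slope 0.32, adjusted p = 0.00305) and Smurf2 (0.19, adjusted p = 0.0247). The call of Smurf2 was lost without day 0 (adjusted p = 0.15) or day 4 (0.0776). All 4 secreted antagonist genes kept rose, with a median slope of 1.01. Bmper, a secreted BMP-binding modulator, rose by 1.23 ± 0.15 per day (adjusted p = 0.00279, from 44 reads on day 0 to 2467 on day 5). Fst, follistatin, rose by 1.07 ± 0.21 (adjusted p = 0.00727) and Fstl1 by 0.96 ± 0.12 (adjusted p = 0.00288), and Twsg1 was the fourth. In the fit over 7 libraries none of these 10 and 4 genes was called (0 each).

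Of the E protein genes, whose products the Id proteins bind, Tcf3 and Tcf4 moved less than Id2 and Id3. Tcf12 moved less than Id3 and, from day 0 to day 5, about as much as Id2. Tcf12, which encodes HEB, rose by 0.48 ± 0.10 per day (adjusted p = 0.00935), with levels of 8.61, 9.96, 10.92, 10.82, 11.14 and 11.30 on days 0 to 5. Over 7 libraries its call was lost (0.048, adjusted p = 0.907). Tcf3, which encodes E2A and was the most abundant of the 3 per length on each day, had a slope of 0.048 ± 0.056 (adjusted p = 0.487) and levels from 11.13 on day 0 to 11.89 on day 2. Tcf4, which encodes E2-2, rose by 0.20 ± 0.064 (adjusted p = 0.0407), and the call was not stable. It was lost after the length correction (adjusted p = 0.0859), median-centring (0.0702) and quantile normalization (0.0569), and without day 0 (0.255), day 1 (0.0923), day 3 (0.0697) or day 4 (0.111). Over 7 libraries the slope of Tcf4 was −0.17 (adjusted p = 0.57).

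The balance of Id to E protein RNA was measured within each library, where the library factor cancels. Per transcript length, the summed Id genes were 2.17 times the summed E protein genes on day 0, 1.08 times a day later and 4.19, 4.43, 4.30 and 4.35 times on days 2 to 5. The ratio was lowest on day 1, with Id1 at its low, and spanned 4.19 to 4.43 from day 2 to day 5. With length-corrected values it was 2.37 and 1.36 on days 0 and 1 and between 6.22 and 7.01 on days 2 to 5. On day 6 the ratio was 56.9, and 7.48 with the length correction. RNA ratios say nothing of protein amounts.

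**Figure D5:**
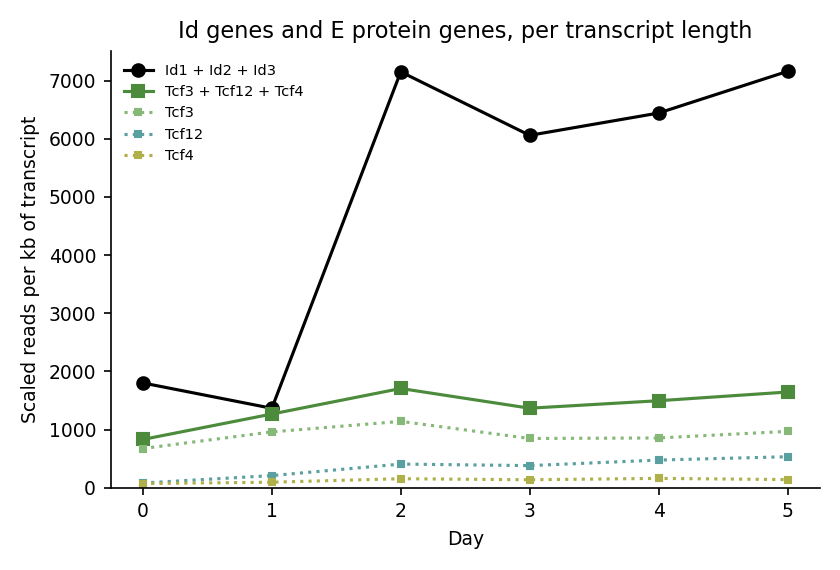
Summed level of the 3 Id genes (black circles) and the 3 E protein genes (green squares) in scaled reads per kb of transcript (y axis) on days 0 to 5 (x axis), with each E protein gene dotted, 1 library per point. The Id sum goes from 1367 on day 1 to 7151 on day 2, while the E protein sum goes from 1269 to 1708.

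Tissue-specific bHLH genes, whose products pair with E proteins as the Id proteins do, were mostly low. Of 41 listed, 12 were in the table and 0 passed the filter, so none was tested. On day 5, 8 of the 12 were at least 4-fold higher and 2 lower than on day 0, against 12.7% and 4.66% of all symbols. Those shares include well expressed symbols, whereas 3 of the 12 had 1 read on day 0, so the comparison is not like for like. Tcf15, a bHLH gene of the early epiblast whose product is held in check by Id proteins in embryonic stem cells, had 718, 1204, 59, 9, 8 and 4 reads on days 0 to 5. On day 0 it was high while Id2 and Id3 were low, but Id1 was high then, with 81.8% of the Id reads. From day 0 to day 1 its reads went up, as did the levels of Id2 and Id3. The day 2 minus day 1 difference of Tcf15 was −4.32 (−4.72 to −3.94), at the step where the Id genes went up. A link between them was not tested. Hand2, a heart and limb factor, had 1, 6 and 104 reads in the first 3 libraries and 313 by day 5. Bhlhe22 had 1 read on day 0 and 140 reads by day 5. Msc, a repressor gene, went from 75 reads on day 0 to 4 on day 1 and 1 on day 5. Low counts leave these folds uncertain, and 1 read may stand for none.

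Of the Hes and Hey repressor genes 2 were kept and 1 rose, against 25.7% of all genes kept. Hes1, a Notch target whose protein is also bound by Id proteins, had levels of 8.58, 8.02, 9.27, 8.71, 8.88 and 9.09 on days 0 to 5. It was lowest on day 1 and highest of these days on day 2, as was Id1, and its slope was not called (0.13 ± 0.082, adjusted p = 0.217). Bhlhe40 rose (0.44 ± 0.12, adjusted p = 0.0245), with its first high value, 10.43, already on day 1. The call was lost over 7 libraries (0.057, adjusted p = 0.878) and without day 0 (0.161), day 4 (0.0699) or day 5 (0.0655).

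Of genes for Id protein turnover and binding partners, 7 were kept, 2 rose and 3 fell, against 25.7% and 26.8% of all genes kept. Usp1, which encodes the deubiquitinase that protects Id proteins from degradation, fell by 0.12 per day (SE 0.032, adjusted p = 0.0209), from 11.04 to 10.55. Fzr1, whose product activates the anaphase-promoting complex that marks Id2 for degradation, fell by 0.24 (adjusted p = 0.00861), and Cops5 was the third, a call lost after the length correction (adjusted p = 0.12). Rb1, the retinoblastoma gene whose protein binds Id2, rose by 0.38 (SE 0.085, adjusted p = 0.0112), and Gsk3b rose as well. Over 7 libraries 0 of the 7 were called and the slopes of Gsk3b (−0.20) and Cops5 (0.091) changed sign. The call of Usp1 was lost without day 0 (adjusted p = 0.0784), day 1 (0.0539) or day 4 (0.0801), that of Fzr1 without day 0 (0.0508), and that of Cops5 without day 0 (0.0502) or day 4 (0.0576).

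Cyclin-dependent kinase inhibitor genes, several of which Id proteins are known to hold down, were higher on day 5 than on day 0. Of the 5 in the table, 0 were at least 4-fold higher on day 2 than on day 1, against 3.45% of symbols. Of 3 kept, 2 rose over days 0 to 5, against 25.7% of all genes kept, and also over 7 libraries. Cdkn2a had levels of 6.47, 7.81, 8.63, 9.46, 9.83 and 10.37 (slope 0.75 ± 0.070, adjusted p = 0.00193), and Cdkn1a (p21) had levels of 8.24, 8.70, 8.93, 11.08, 11.72 and 11.94 (0.85 ± 0.10, adjusted p = 0.00279). The main step of Cdkn1a came on day 3, a day after that of the Id genes. Cdkn2b, below the filter, had 9 reads on day 0 and 569 on day 5, and Cdkn1c 38 and 717.

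Of 9 kept genes for factors known to switch on Id genes, 1 rose (Smad1) and 2 fell, Myc (−0.67 ± 0.063, adjusted p = 0.00196) and Sp1, against 25.7% and 26.8% of all genes kept. The call of Sp1 was lost over 7 libraries (adjusted p = 0.139) and without day 0 (0.202), day 1 (0.055) or day 4 (0.0624). Egr1, an immediate early factor known to induce Id3, had 198, 59, 106, 69, 151 and 235 reads on days 0 to 5, and its scaled levels on days 1 to 5 (6.67 to 8.13) lay below that on day 0 (8.57). Stat5b had 52, 109, 477, 243, 484 and 489 reads, and its step to day 2 was 4.48-fold (2.16, 1.86 to 2.48). Stat3, the LIF effector, had levels of 11.40, 9.69 and 10.61 on days 0 to 2 and 11.34 on day 5. Its slope was not called (0.14, adjusted p = 0.374), but without day 0 it was called rising (0.40, adjusted p = 0.0239).

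The genes with courses most like those of the members were found by Pearson correlation over the 6 libraries of days 0 to 5, which share the library scaling, among 6883 genes. Id2 and Id3 correlated with each other at r = 0.991 over 6 libraries and 0.975 over 7. Id1 correlated with Id2 at 0.703 and with Id3 at 0.655. Nearest to Id3 were Trpc4ap, Bcr, Bri3, Rbpms and Ywhab (r from 0.997 to 0.998), and nearest to Id2 were Rbmx, Dnttip1, Chkb, Zscan21 and Npnt (0.996 to 0.998). Nearest to Id1 were Atp10d, Plod1, Ankrd33b, Zfp280b and the noncoding RNA Rian (0.966 to 0.982). Rian had levels of 11.47, 9.22 and 12.21 on days 0 to 2. Such high values were common for the stepped courses, since 678 genes (9.85%) had an r over 0.95 with Id3 and 413 (6.00%) with Id2. Only 10 genes (0.145%) had one with Id1. Over 7 libraries r was 0.569 for Trpc4ap (3216 nt), −0.340 for Bcr (6560 nt) and 0.954 for Bri3 (966 nt) with Id3, and −0.655 for Atp10d (6071 nt) with Id1. With Id2 it was 0.997 for Zscan21 (2320 nt), 0.986 for Chkb (1718 nt), 0.921 for Rbmx (2446 nt), 0.693 for Dnttip1 (1257 nt) and 0.40 for Npnt (3681 nt), so r did not follow length in each case.

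Markers of several other cell types moved at the same step. In bulk RNA, more cells of a type and more RNA per cell cannot be told apart. Of 11 endoderm markers in the table, 7 were at least 4-fold higher on day 2 than on day 1, against 3.45% of all symbols, and their summed level was 8008, 12701 and 91359 scaled reads on days 0 to 2 and 145898 by day 5. The 6 smooth muscle markers summed to 425, 847 and 3925 on days 0 to 2, with 3 at least 4-fold higher at that step. Fibroblast markers (7 in the table) summed to 903, 1111 and 3050, with 1 that far higher. Neural progenitor and neuron markers (7 in the table) summed to 2437, 2315 and 3548, also with 1 that far higher. The 1 trophoblast marker in the table stood at 98 scaled reads on day 1 and 79 on day 2. Endothelial markers, of a cell type known for Id1 and Id3 expression, summed to 1963 on day 1 and 1068 on day 2 over 6 genes, of which 2 were higher on day 2. Most of that difference lay in Pecam1 (507 and 41 reads), and without it the other 5 summed to 1090 and 995. No marker in the table was at 0, since 1 read was the least that any row held. The part of these cell types in the Id step was not tested.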

How the data were processed

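RNA-seq libraries of rRNA-depleted RNA were made 1 per day, for days 0 to 6. Reads were aligned by the authors with BWA 0.7.3 to mm9, per the submitters' processing notes. The sources used here do not name the counter, its strand setting, the annotation or the scaling. Per the file headers, the deposited unit is normalized log2, with 1 row per RefSeq transcript. Taken out of the log, these values were whole multiples of the lowest value of their library (within 0.05 reads for 100% of values up to 1000 reads), which was taken as 1 read. A constant added before scaling cannot be told apart. Values were not divided by transcript length, and the deposited length in nt was used for values per kb.

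For each of 12071 symbols the transcript with the highest mean was used, and 7242 with a mean above the 40th percentile (log2 8.40) were kept. Straight lines on day over days 0 to 5 were fitted with limma 3.58.1 in R 4.3.3 (variances moderated along the mean, 4 residual degrees of freedom). Adjustment was by Benjamini-Hochberg over the genes kept, with calls at an adjusted p under 0.05. The fit was tested on simulated data. Spread is taken about the line, as there are no replicates. Differences between 2 libraries carry exact binomial (Clopper-Pearson) 95% intervals and no p.

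The members and lists were chosen with earlier results of these data known, as was the use of days 0 to 5. Lists share genes: Smad6, Smad7 and Bambi, Atoh8, Hey1, Smad1 and Smad5 each stand in 2. The rule for names took up to 4 genes per list with the largest day 5 minus day 0 difference, fixed examples, and the 5 genes most like each member. Acvr1, Neo1, Msx1, Twsg1, Cdh1, Klf10, Cops5, Sp1 and Stat3 were named after their values were seen. Promoters came from RefSeq (GRCm38.p6), with entries for Id2, Id3 and Id4. Alternatives were all 7 libraries, each library left out, median-centring, quantile normalization, a lowess correction for length, a pseudocount of 32, no filter, and summed transcripts. A gene that the rule for names takes is not reported here.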

Additional observations from a re-analysis of the deposited data

How the results depend on the processing

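With 1 library per day, spread between cultures was not measured, and low-count genes (1 to 3 reads) have wide intervals. No paired analysis was possible because each day had a single library and the labels give no replicate numbers. In the fit over all 7 libraries limma called 116 rising and 274 falling genes, and 2 rising and 2 falling pathway list genes, against 24 and 7 of 54 over days 0 to 5. In that fit the slope of Id1 was 0.35, and called slopes turned negative for Acvr2a (−0.22), Bmpr1a (−0.019), Bmpr2 (−0.18), Gsk3b (−0.20), Smad4 (−0.13), Smurf1 (−0.049), Smurf2 (−0.19), Tcf4 (−0.17) and Neo1 (−0.31), and positive for Cops5 (0.091). With 1 library left out, rising genes numbered from 1038 (without day 0) to 2005 and falling genes from 1240 (without day 4) to 1960, against 1858 and 1943. Without day 4 rising genes numbered 1128, and list genes fell in number from 7 to 4 (range 4 to 8 falling, 18 to 25 rising). Over the same leave-outs the slope lay from 0.37 to 0.78 for Id2, from 0.66 to 1.19 for Id3 and from 0.053 to 0.26 for Id1. Without the filter 3132 genes rose, as did 47 of 96 list genes. Median-centring put the day 5 minus day 0 difference of Id1 at 0.039. The length correction put it at 0.74 for Id1 and 5.29 for Id3, and their day 2 minus day 1 differences at 2.00 and 3.26. Quantile normalization put the day 5 minus day 0 difference of Id2 at 2.46. The cause of these shifts was not tested. The slopes and the day 5 minus day 0 and day 2 minus day 1 differences of the 3 Id genes kept their sign in these alternatives, while the day 6 minus day 5 difference of Id2 went from 0.90 to −0.39 with the length correction. The pseudocount and summed transcripts moved no Id value beyond its interval or SE.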
